A study of Caenorhabditis elegans with 2 samples.

Results

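LSY-2 binding sites near the promoters of both genes of a head-to-head pair, most of them between the genes, were examined on the autosomes of Caenorhabditis elegans. They were mapped by ChIP-seq, the sequencing of DNA pulled down with a protein from sheared chromatin, in whole L2 larvae of mixed sex. Their strain, OP367, has the genotype unc-119(tm4063) III; wgIs367, where wgIs367 is a transgene that adds LSY-2 with GFP-FLAG fused to its C-terminus. The series holds 1 group of 2 biological replicates with 1 library each, the age of the animals is labelled unknown, and chromatin was sheared by sonication. All animals carried the tagged protein, so the peaks are those of the transgene's product, mixed over every cell that made it. With a single group there is no comparison between conditions, and 2 replicates of 1 group leave no sample labels to permute. Every comparison here is between sets of peaks of the same list and is given as a description, without a p-value.

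A peak was taken when its summit, in the authors' optimal list on the build ce11, fell in the promoter windows of at least 1 protein-coding gene on each strand. A window begins 1000 bp before the annotated 5′ end and runs 200 bp into the gene. The rule used positions and no score. It picked 831 of the 5320 autosomal peaks (15.6%), out of 6312 peaks on all chromosomes. A further 1846 autosomal peaks had only genes of a single strand in reach and are called one-sided promoter peaks, and 2643 lay outside all promoter windows. At the edge of the rule, 22 peaks lay less than 50 bp inside a window limit, with a median score of 186, and 30 lay less than 50 bp outside, with a median score of 119.

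In the compact genome of C. elegans many neighbouring genes are transcribed away from each other from a short shared intergenic stretch, in which a single bound factor is close to both transcription starts. LSY-2 is a C2H2 zinc finger transcription factor known from the ASE taste neurons, whose left and right cells it helps to make different. Many C. elegans transcripts receive a spliced leader, which replaces their original start, so that an annotated 5′ end can lie downstream of the true start of transcription.

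The sequences at the strongest shared peaks are shown first because one short string, ACCGTA, recurs in them. The 8 stretches below are the 81 bp centred on the summit of some of the highest-scoring shared peaks, all outside annotated transcripts, on the plus strand of ce11. Capitals mark ACCGTA or its reverse complement TACGGT. The string is present in 7 of the 8, and the stretch between mig-5 and cct-1 has none.
rpl-20/Y17G9B.5, chrIV:4750025-4750105: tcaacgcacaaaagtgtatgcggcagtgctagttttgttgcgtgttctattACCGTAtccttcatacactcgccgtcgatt
rpl-15/K11H12.8, chrIV:654890-654970: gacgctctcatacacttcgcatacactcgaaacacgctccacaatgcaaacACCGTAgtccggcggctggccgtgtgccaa
F55A11.1/syx-5, chrV:11764519-11764599: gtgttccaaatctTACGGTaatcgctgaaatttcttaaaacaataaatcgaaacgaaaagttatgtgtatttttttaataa
cct-8/Y55F3AR.2, chrIV:1094321-1094401: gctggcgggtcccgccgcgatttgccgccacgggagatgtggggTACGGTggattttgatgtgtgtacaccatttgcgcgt
gmps-1/cap-2, chrII:10868928-10869008: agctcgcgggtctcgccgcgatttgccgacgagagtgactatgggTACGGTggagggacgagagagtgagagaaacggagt
mig-5/cct-1, chrII:8185175-8185255: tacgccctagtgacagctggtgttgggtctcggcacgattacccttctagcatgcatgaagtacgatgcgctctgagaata
cup-14/ndub-8, chrII:13872653-13872733: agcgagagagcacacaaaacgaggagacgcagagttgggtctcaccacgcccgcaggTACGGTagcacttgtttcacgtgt
lin-7/elof-1, chrII:14349654-14349734: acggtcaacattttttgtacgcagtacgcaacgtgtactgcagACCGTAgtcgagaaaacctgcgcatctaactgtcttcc

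At a second set of shared peaks the string follows GAGTGT. These 9 of 15 such stretches, each of 33 bp, are written in the direction that reads ACCGTA, and capitals mark GAGTGT and ACCGTA, which are 1 base apart. In those shown the bases before GAGTGT are more alike than the bases after ACCGTA; they are the copies outside annotated transcripts whose sequence could be given, and the other 6 are less alike, as counted further on. The strand of ce11 is given with each.
rps-23/dpm-3, chrIV:12391290-12391322, plus strand: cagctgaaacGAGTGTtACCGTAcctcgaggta
ify-1/rpl-22, chrII:5055377-5055409, plus strand: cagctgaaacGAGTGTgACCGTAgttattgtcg
T26A8.4/pdtf-1, chrIV:8432980-8433012, minus strand: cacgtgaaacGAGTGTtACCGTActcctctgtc
rpn-5/scc-1, chrII:4698439-4698471, plus strand: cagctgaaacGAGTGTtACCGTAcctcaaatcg
npp-3/top-2, chrII:11874838-11874870, minus strand: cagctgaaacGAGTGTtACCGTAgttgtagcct
rpl-21/C14B9.10, chrIII:8130508-8130540, minus strand: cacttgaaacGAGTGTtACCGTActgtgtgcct
R04F11.5/R04F11.2, chrV:12318333-12318365, minus strand: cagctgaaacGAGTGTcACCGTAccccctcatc
snt-2/rps-29, chrIII:793797-793829, plus strand: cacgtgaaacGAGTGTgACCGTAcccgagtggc
ppm-1.H/rpl-34, chrIV:12268558-12268590, plus strand: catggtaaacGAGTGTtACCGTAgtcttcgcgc

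To show a whole shared promoter, the 144 bp between the 5′ ends of T26A8.4 and pdtf-1 are given on the plus strand, with TACGGT in capitals. The summit of this peak, with a score of 4482, lay 77 bp upstream of T26A8.4 and 68 bp upstream of pdtf-1.
T26A8.4/pdtf-1, chrIV:8432894-8433037: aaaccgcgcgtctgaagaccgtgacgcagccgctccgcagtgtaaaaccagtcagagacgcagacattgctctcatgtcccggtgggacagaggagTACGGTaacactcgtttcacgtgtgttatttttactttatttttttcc

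Shared divergent peaks were the stronger promoter peaks. The score is the value that the authors' peak caller gave each peak, and the sources used here do not give its scale. The median score was 269 for the 831 shared peaks, with quartiles of 150 and 515 and a range of 58.3 to 19393. One-sided promoter peaks had a median of 152, peaks outside promoters a median of 101.6, and all autosomal peaks a median of 128. The ratio of the shared to the one-sided median was 1.77 in the optimal list. In the lists of the single replicates, cut to the same number of strongest peaks, it was 1.67 and 1.70 (mean 1.69 ± 0.018 SD, n = 2). The upper end of the list was made up mostly of shared peaks: they were 15 of the 20 strongest autosomal peaks, 33 of the 50 strongest and 61 of the 100 strongest. In the top score decile of the autosomal peaks stood 219 of the 831 shared peaks (26.4%), against 12.5% of the one-sided and 3.14% of the other peaks.

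Shared peaks also had the higher median at like distances from a gene. Classes were formed by the smaller upstream distance to a 5′ end, counted as negative inside a gene. In each of the 6 classes the ratio of the medians was between 1.55 and 1.90. It was 1.90 for summits 0 to 99 bp upstream, where the median was 286 for shared peaks, and 1.55 for summits between 300 and 500 bp upstream.

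**Figure D1:**
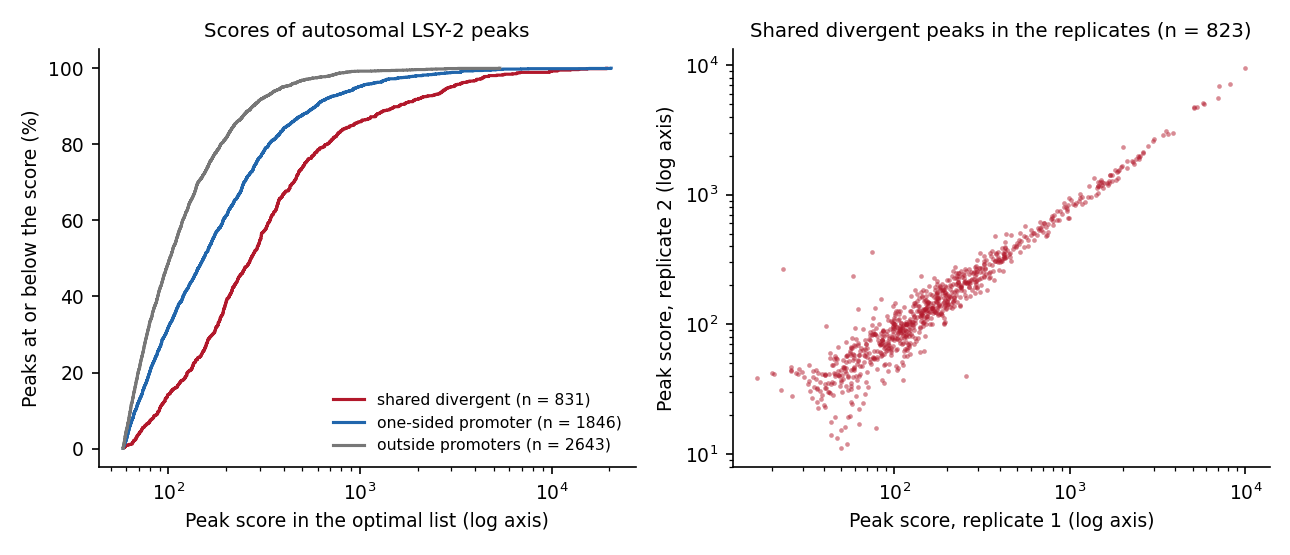
Left, the percentage of autosomal peaks at or below each score (log axis) for 831 shared divergent, 1846 one-sided promoter and 2643 other peaks; the curve of the shared peaks lies to the right of the others, with a median of 269. Right, the score of each of 823 shared divergent peaks in replicate 1 against replicate 2 (log axes); the points form a narrow band that widens at low scores.

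The replicates ranked the shared peaks alike. A summit within 200 bp was found among the 6312 strongest peaks of both replicates for 777 of the 831 shared peaks (93.5%), for 83.3% of the one-sided peaks and for 73.3% of the peaks outside promoters. With the whole relaxed lists of 30000 peaks each, 823 shared peaks had a match in both. Across these 823 peaks Spearman's correlation of the replicates' scores was 0.949, against 0.890 for the one-sided peaks and 0.738 for the others. These correlations are across peaks, which share their libraries, and stronger peaks make up more of the shared set. The optimal list was derived from these replicates by the irreproducible discovery rate procedure, so agreement between them was part of entering it. The share found in both also followed the score. In the top score decile it was 100% of the shared and 99.6% of the one-sided peaks, and in decile 7 it was 86.3% and 92.5%.

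Both replicates placed the same pairs at the top. The strongest shared peak lay between rpl-20, a gene for a large ribosomal subunit protein, and Y17G9B.5, with a score of 19393 in the optimal list, 10000.2 in replicate 1 and 9427 in replicate 2. The next, between the ribosomal protein gene rpl-15 and K11H12.8, had 15276, 8195 and 7136. The third, between F55A11.1 and syx-5, a syntaxin of membrane traffic, had 13868, 7034 and 6857. These were the peaks of rank 2, 4 and 5 in the whole optimal list. None of the 20 strongest shared peaks ranked below 35 in either replicate, and all 20 summits lay between the paired 5′ ends.

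A cytosolic ribosomal protein gene was part of 7 of these 20 pairs, while 46 of all 831 shared peaks had one. The 7 were rpl-20, rpl-15, rps-1, rps-20, rps-23, rpl-22 and ubq-2, which encodes a ubiquitin fused to a ribosomal protein. The peak between ifet-1, which encodes a translational repressor that binds the cap-binding protein, and rps-1 had a score of 12541, and that between rps-20 and ekl-4 a score of 9979. The elongation factor genes eef-2 and eef-1A.1 shared peaks of 6847 and 6561 with clsp-1 and rfc-4, which act in the replication checkpoint and in clamp loading.

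The others of the 20 pairs joined genes of several basic machineries. Subunits of the cytosolic chaperonin stood in a pair of them, cct-8 with Y55F3AR.2 (10793) and cct-1 with the Wnt signalling gene mig-5, a dishevelled homologue (9732). Subunits of the respiratory chain and the ATP synthase were ndub-8 with cup-14 (6618) and atp-1 with mcrs-1 (5551). Proteasome subunits were pas-4, paired with the RNA polymerase II subunit gene rpb-3 (4716), and rpn-5, paired with the cohesin gene scc-1 (4420). The remaining pairs were gmps-1, a GMP synthase, with the actin capping gene cap-2 (10737), lin-53, a histone-binding protein, with nra-2 (9756), the scaffold gene lin-7 with elof-1, a transcription elongation factor (6252), and T26A8.4 with pdtf-1. The partners of rps-23, ubq-2 and rpl-22 were dpm-3, frg-1 and the securin gene ify-1.

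The paired genes of the 831 peaks stood close together. The distance from the minus-strand to the plus-strand 5′ end had a median of 485 bp, with quartiles of 301.5 and 753 bp. The widest pair was cnx-1, which encodes the chaperone calnexin, and panl-3, 1919 bp apart with a score of 198, followed by mdh-1/F46E10.3 at 1771 bp and F52H3.6/ttc-36 at 1768 bp. The narrowest were F32D8.14/F32D8.5 at 12 bp, F25H9.6/F25H9.7 at 15 bp and Y59E9AL.36/nbet-1 at 20 bp, with scores of 410, 432 and 295. In 4 pairs the annotated 5′ ends overlapped, by up to 56 bp in F30F8.5/taf-5, so the genes ran across each other.

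Summits lay mostly between the genes, and more often in the central section than the allowed positions did. Of the 827 peaks whose 5′ ends did not overlap, 762 (92.1%) had the summit between the ends, although on average only 57.6% of the positions that the rule allowed at the same pairs lay there. On a scale from 0 at the minus-strand end to 1 at the plus-strand end, the median position was 0.507, with quartiles of 0.311 and 0.681. The central section, from 0.333 to 0.667, held 343 summits (41.5%), while 21.6% of the allowed positions lay in it. Both shares are over summits and positions beyond the ends too, so part of this contrast is that of lying between the ends. The summit was less far upstream of the plus-strand gene in 427 peaks and of the minus-strand gene in 403, and was at the same distance in 1.

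Most summits were within a short distance of a gene. Distances were counted upstream of each 5′ end, so that a summit inside a gene had a negative one. The smaller of both had a median of 142 bp, with quartiles of 61 and 212 bp, and the larger a median of 324 bp. Of the 831 peaks, 264 (31.8%) had distances that differed by up to 100 bp, and 25 lay 500 bp or more from both genes. The summit was outside every coding transcript in 754 peaks (90.7%).

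**Figure D2:**
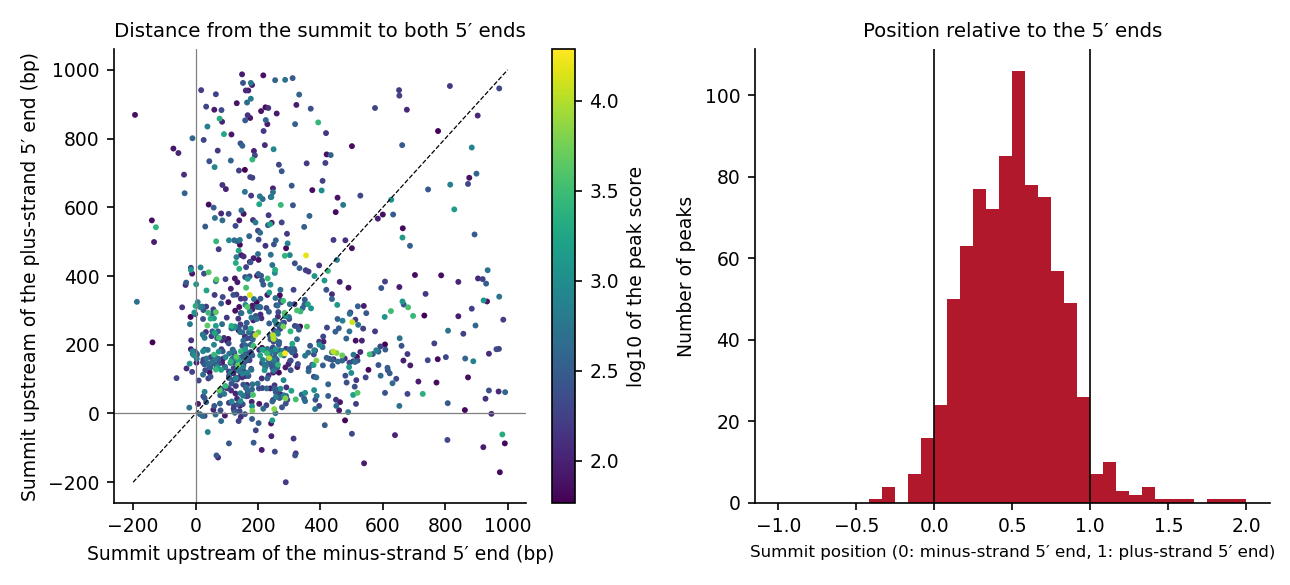
Left, the distance in bp from each of the 831 summits upstream of the minus-strand 5′ end (horizontal) and of the plus-strand 5′ end (vertical), coloured by log10 of the score, with negative values inside the gene and the dashed line marking equal distances; most points lie within 500 bp of both ends. Right, the number of peaks by summit position, from 0 at the minus-strand to 1 at the plus-strand 5′ end; the median is 0.507, and 5 peaks outside the drawn range are not shown.

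A splice acceptor string stood before the annotated starts of these genes more often than before others. The string, TTTCAG, stood directly before the 5′ end of 388 of the 1608 genes nearest to the shared summits (24.1%), against 12.3% of the 17242 autosomal protein-coding genes. Whether these are sites of trans-splicing, and whether that moved the distances given above, was not tested.

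Seen from the genes, those in divergent pairs had a promoter peak more often than other genes. Over all autosomal protein-coding genes, 3444 of 17242 (20%) had a promoter peak. Of 2382 autosomal divergent pairs spaced up to 2000 bp, 797 (33.5%) had a shared peak. These shares are unlike measures: the first counts any promoter peak of a gene, in a pair or not, and the second only shared peaks of a pair. The windows of the 831 peaks held 1666 genes, which were 48.4% of the 3444 genes with a promoter peak. Of the genes that were part of a divergent pair, 36.9% had a promoter peak of any kind, against 13.5% of those that were not. A gene in a pair can be reached by summits placed for its neighbour, so the shares are not equal by construction. The nearest pairs were 805 different ones, of which 26 held 2 peaks each, and 60 peaks had more than 2 genes in reach.

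Occupancy varied with the spacing of the pair. It was highest for pairs over 400 and up to 500 bp apart, of which 58.4% had a shared peak (95% interval 50.9 to 65.6), and close to that for the class of 300 to 400 bp, with 57.4%. Pairs 100 to 200 bp apart had 32.8%, and pairs 700 to 1000 bp apart had 33.8%. The stretch that both windows cover grows with the spacing among close pairs and shrinks among wide ones, starting below 1000 bp. The shares were not adjusted for its length. Above 1000 bp the share was 17.2% up to 1500 bp and 11 of 275 pairs from there to 2000 bp. The intervals are exact Clopper-Pearson intervals, which cover the counting of pairs only. The median score of the peaks followed the spacing less closely, from 241 at 100 to 200 bp and 324 at 300 to 400 bp to 153 at 1500 to 2000 bp.

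**Figure D3:**
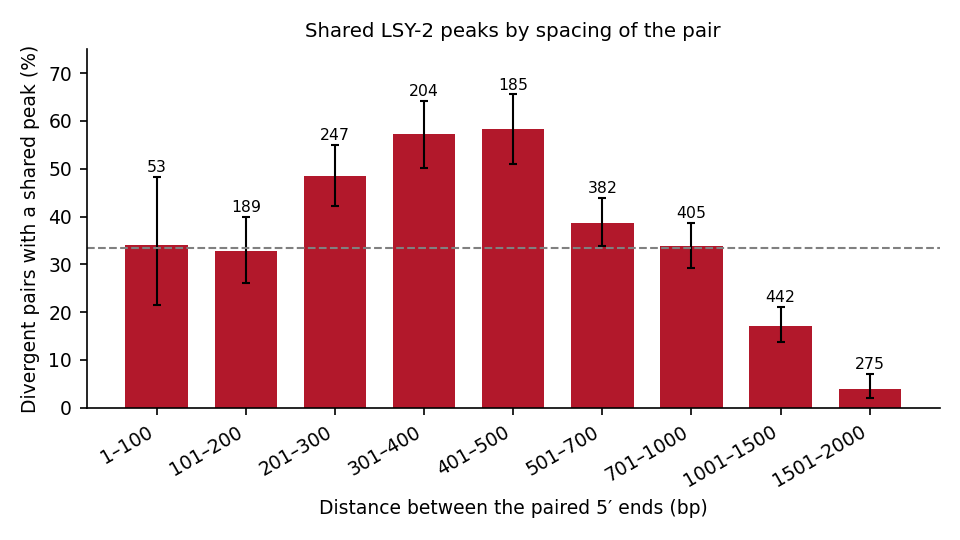
Percentage of autosomal divergent gene pairs with a shared LSY-2 peak by the distance between their 5′ ends in bp; bars are shares, whiskers exact 95% intervals, numbers above them the pairs in each class, and the dashed line the 33.5% of all 2382 pairs. The bars rise to 58.4% at 400 to 500 bp and are lowest at 1500 to 2000 bp.

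Pairs with genes of the cytosolic ribosome and of translation factors were nearly all occupied, and those of protein folding and breakdown had shares above that of all pairs. Classes were formed by gene name and chosen with earlier results of these data known. A pair counted when at least 1 of its genes was in the class. The share with a shared peak was 33.5% over all pairs. Among pairs with a cytosolic ribosomal protein gene it was 46 of 47 (97.9%, 88.7 to 99.9), with a median score of 1649, and among pairs with a translation factor 24 of 25. The mitochondrial ribosomal protein genes had 23 of 27, aminoacyl-tRNA synthetases, which charge tRNAs, 11 of 15, chaperones 25 of 30 and the proteasome 18 of 22.

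Pairs with genes of other basic machinery also had shares above that of all pairs. Splicing factors had 38 of 44 pairs with a shared peak, the respiratory chain and ATP synthase 30 of 37, RNA polymerase with TFIID and Mediator 21 of 28, nuclear pore and transport genes 20 of 27, and the V-ATPase and vacuolar sorting class 13 of 20. The DRM complex, a repressor of cell cycle and germline genes, had 4 of 5. These 11 classes, without DRM, gave 262 of the 831 peaks (31.5%), with a median score of 370, and the other 569 had a median of 232. Among one-sided peaks the same classes gave 8.88%, with a median of 314, against 143 for the rest. Within single classes the order varied. The shared median was above the one-sided one for cytosolic ribosomal proteins (1649 against 895), but below it in 5 of the 11 classes: translation factors (321 against 586), the respiratory chain and ATP synthase (266 against 322), nuclear pore and transport (259 against 341), splicing factors (299.5 against 348) and RNA polymerase with TFIID and Mediator (216 against 235.3).

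Families of environmental and tissue-specific genes were seldom occupied. Chemoreceptor genes, which serve smell and taste, were part of 220 divergent pairs, of which 6 (2.73%, 1.01 to 5.84) had a shared peak. C-type lectins had 1 of 65, F-box and BTB genes 13 of 108, nuclear receptors 6 of 35, cuticle collagens 5 of 37 and neuropeptides 1 of 10. Cytochrome P450 genes had 0 of 13, with an upper 95% bound of 24.7%. Histones, which in C. elegans often stand in divergent pairs of near-identical copies, had 4 of 32; the sources used here do not say how reads that match several copies were placed. The strongest shared peaks with a gene of these families were bath-42 with the splicing gene prp-8 (3450) and fbxc-23 with csc-1 (1890) for F-box and BTB genes, col-38 with rpl-5 (2607) and col-71 with Y49F6B.2 (389) for collagens, dnj-19 with nhr-47 (577) and nhr-142 with F44E7.9 (498.8) for nuclear receptors, and nlp-4 with the exosome gene exos-3 (2113) for neuropeptides.

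Like autosomal genes as a whole, those of the 11 classes were more often occupied when paired. Over all autosomal protein-coding genes the shares were 36.9% in pairs and 13.5% outside. Of the genes of the 11 classes in divergent pairs, 292 of 333 (87.7%) had a promoter peak, against 46.5% of 325 outside pairs. Here too, summits placed for a neighbour can reach a gene in a pair. For cytosolic ribosomal protein genes it was 50 of 50 and 23 of 31. For chemoreceptors it was 2.21% in pairs and 0.51% outside.

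**Figure D4:**
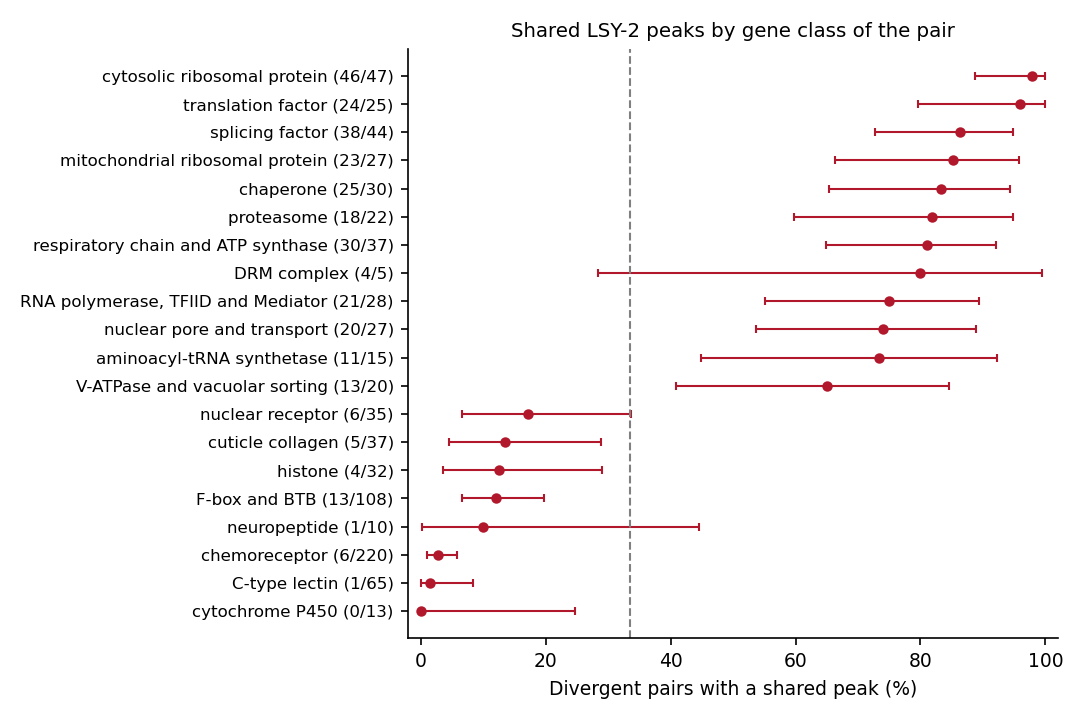
Percentage of divergent gene pairs with a shared LSY-2 peak for 20 gene classes, with occupied pairs over all pairs after each name; points are shares, whiskers exact 95% intervals, and the dashed line the 33.5% of all pairs. The classes were chosen with earlier results of these data known. Among them the upper group runs from 13 of 20 pairs to 46 of 47, and the lower group has up to 17.1%.

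In a few pairs both genes were of the same class. The ribosomal protein genes rps-10 and rpl-24.1 shared a peak of 4060, which ranked 39 in replicate 1 and 41 in replicate 2, and the splicing genes snr-3 and rsp-5 one of 3106. These were the same-class pairs among the 100 strongest. Further down, chosen after their values were seen, came rps-14/rpl-36 (921), rsp-2/rsp-1 (649), rpl-39/rps-30 (509), snu-13/rsp-7 (479) and tlf-1/cdk-8 (759), which encode a TBP-like factor and the Mediator kinase. The histone pairs his-67/his-68 and his-61/his-62 had scores of 476 and 171.

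The heat shock pair hsp-16.2/hsp-16.41 carried a peak with a score below the shared median (269) and above the one-sided one (152). The pair was chosen after its values were seen. These genes encode small heat shock proteins and are textbook targets of the heat shock factor, so the whole stretch between their 5′ ends is shown, with the 2 copies of TTCTAGAA, a short palindrome of heat shock elements, in capitals. The plus strand of ce11 is given. TTCTAGAA stood between the 5′ ends of 131 of the 2382 divergent pairs (5.50%), more than once in 15.
hsp-16.2/hsp-16.41, chrV:1804958-1805177: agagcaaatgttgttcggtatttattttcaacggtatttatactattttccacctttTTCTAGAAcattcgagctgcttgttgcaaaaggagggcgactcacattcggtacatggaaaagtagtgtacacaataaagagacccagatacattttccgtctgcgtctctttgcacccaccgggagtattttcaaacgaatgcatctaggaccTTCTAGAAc
Its score was 212 in the optimal list, 77.7 in replicate 1 and 133 in replicate 2. It ranked 2843 in replicate 1 and 1183 in replicate 2, so the replicates placed it less alike than they did the strong peaks. The summit lay 169 bp upstream of hsp-16.2 and 52 bp upstream of hsp-16.41, and ACCGTA was not found around it.

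The 6-mer ACCGTA was more frequent at shared peaks than at one-sided promoter peaks. Both strands were searched from 50 bp before to 50 bp after the summit, and the string was chosen with earlier results of these data known. It was found at 133 of the 831 shared peaks (16%, 13.6 to 18.7), at 6.88% of the one-sided and at 5.41% of the other autosomal peaks. The windows at the midpoints of divergent pairs without a shared peak held it in 3.66%. Of 2080 6-mers, with reverse complements joined, ACCGTA had the largest excess in shared peaks, and AAAAGA the largest deficit, with 12.4% against 24.2%. The repeat GAGAGA and the string ACGCAG ran otherwise: the first was less frequent in shared peaks, at 16.6% against 24.4% and 33.4%, and the second stood at 14.1%, against 17.4% and 14.2%.

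The string marked the strongest peaks. Shared peaks with ACCGTA had a median score of 1629, and those without it 229; for one-sided peaks the medians were 771 and 146, and for other peaks 129 and 100.6. Among the 83 strongest shared peaks 69 held it (83.1%), among the 83 weakest 3 (3.61%), and among the 20 strongest 19, the exception being mig-5/cct-1. Among the 20 strongest one-sided peaks 17 held it. In the top score decile of all autosomal peaks the share was 47.0% of the shared peaks (40.3 to 53.9), 31.3% of the one-sided (25.4 to 37.7) and 24.1% of the others. In the next decile it was 4.73%, 6.60% and 7.95%.

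The copies stood close to the summit. Within 150 bp of the shared summits were 169 copies at 161 peaks, with a median distance of 16.5 bp, and 8 peaks had several. ACCGTA occurred at 45.7% of the shared peaks with a cytosolic ribosomal protein gene, at 24.0% of those of the 11 classes and at 12.3% of the others. At the shared peaks of the mitochondrial ribosomal protein class it was 5 of 23, and at the shared chemoreceptor peaks 0 of 6. One-sided peaks showed the same order: 41.7% with a cytosolic ribosomal protein gene, 15.9% for the 11 classes and 6.00% for the others. With translation factors the string was at 5 of 24 shared and 5 of 13 one-sided peaks.

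**Figure D5:**
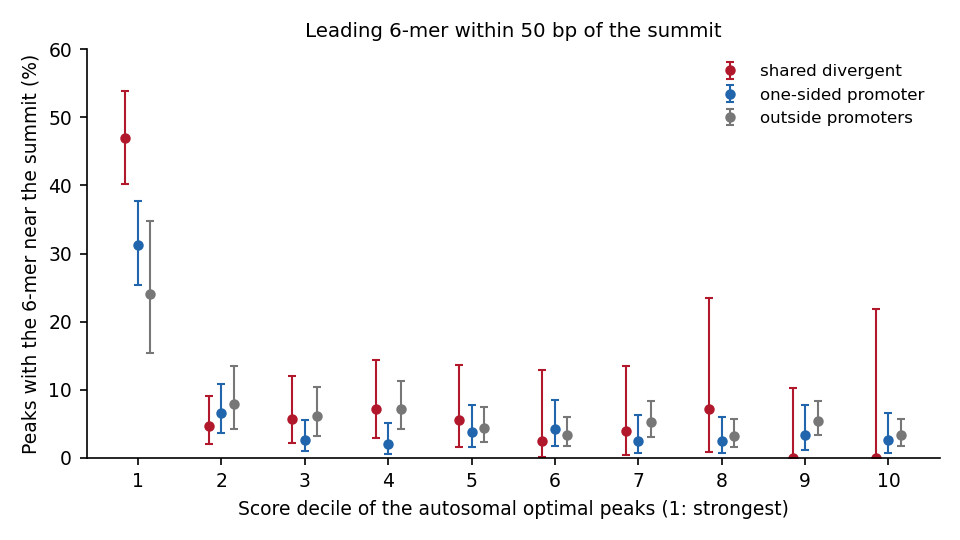
Percentage of peaks with the 6-mer ACCGTA, on either strand, within 50 bp of the summit, by score decile of the autosomal optimal peaks, from 1 (strongest) to 10; points are shares and whiskers exact 95% intervals for shared divergent, one-sided promoter and other peaks. The first decile stands at 47.0%, 31.3% and 24.1%, and all later points lie below 8%.

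The string alone was a poor mark of a peak. Of 25589 copies on the autosomes, 138 lay within 50 bp of a shared summit, 131 at one-sided peaks and 152 at other peaks, in all 1.65% of the copies. Divergent pairs with a copy between their 5′ ends had a shared peak in 200 of 572 cases, and pairs without one in 597 of 1810, but those with a copy were wider, with a median gap of 879.5 bp against 600 bp. Within broad classes of spacing the share was higher with a copy than without. It was 64.1% against 38.9% up to 300 bp, where 39 pairs had a copy. It was 54.1% against 46.6% from there to 700 bp, and 21.9% against 19.1% up to 2000 bp. ACGCAG and GAGAGA gave the same direction in every class, so it was not particular to ACCGTA. Up to 300 bp the shares were 70.7% against 38.2% for ACGCAG and 51.8% against 38.6% for GAGAGA.

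The longer form shown above was rare in the genome and mostly at peaks. GAGTGT, 1 base and ACCGTA occurred 29 times on the autosomes, 15 of them at shared summits, 6 at one-sided peaks, 2 at other peaks and 6 at no optimal peak, so that 79.3% lay at a peak. This form was chosen after its values were seen. GAGTGT was the 6-mer most often before ACCGTA at these same shared peaks, in 15 of 138 copies. The counts at peaks are therefore no independent support for the form. The 15 shared peaks had a median score of 4059 and a range of 2086 to 5670, and the 6 one-sided peaks a median of 2119. The bases GAAAC preceded GAGTGT in 10 of the 15 copies at shared peaks, 8 of them among the 9 shown. They also did so in 3 of the 6 copies at one-sided peaks, in 2 of the 2 at other peaks and in 1 of the 6 at no peak. The shorter AAAC preceded it in 13 of 15, 5 of 6, 2 of 2 and 3 of 6 copies, so these bases were not particular to shared peaks. The strongest 2 shared peaks, at rpl-20 and rpl-15, did not have this form; the 6-mers next most often before ACCGTA at shared peaks were GTTGTT, in 8 copies, and ATTGCA, in 5.

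The mean G and C content of the summits was close in the 3 sets. The GC content within 50 bp of the summit was 44.8% ± 7.7 (SD over 831 peaks) at shared, 43.8% ± 7.8 at one-sided and 43.4% ± 8.0 at other peaks.

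Occupied pairs were spread unevenly over the autosomes. On chromosome III 51.9% of the divergent pairs had a shared peak, on I 45.1%, on II 31.5%, on IV 29.3% and on V 19.3%. The median score was highest on IV, at 295. In the middle sections of the autosomes, each cut into 3 equal lengths, lay 46.2% of the shared peaks and 40.6% of the pairs, and 38.3% of the pairs there had a shared peak, against 30.2% of the pairs in the outer sections.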

How the data were processed

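ChIP-seq peaks of 2 biological replicates were used as the authors deposited them on the build ce11: a relaxed list of 30000 peaks for each replicate against a control and the optimal list of 6312 peaks, derived from them by the irreproducible discovery rate procedure per the file descriptions. Peak caller, aligner and threshold are not named in the sources used here. The authors' peak caller gave each peak a score, whose scale is not given. The deposited −log10 q-value was 4.26 for every optimal peak and could not rank them. The files hold no read counts, so the depth is unknown and intervals reflect counting error only. Lists on another build were not analysed here.

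Genes, names and 5′ ends came from Ensembl release 115 on WBcel235, the assembly of ce11, and sequences from that genome. The 5′ end of a gene is its outermost annotated base. A divergent pair is a minus-strand end followed by the nearest plus-strand end within 2000 bp. Where several genes of a strand were in reach, the nearest was taken. Summits within 200 bp matched between lists. Motifs were searched on both strands within 50 bp of the summit, and 20 classes were formed by gene name patterns. Genes were named by rule: the 20 strongest peaks, the 2 strongest of each class, same-class pairs among the 100 strongest, and the 3 narrowest and 3 widest pairs, with exceptions marked. The peaks, lists, classes and strings were chosen with earlier results of these data known. The assignment was tested on simulated positions. Python 3.11.15, pandas 2.3.3, numpy 2.4.6 and scipy 1.17.1 were used. Alternatives were other windows, all transcript ends, the strongest 50% of peaks, single replicates, other matching distances, wider motif windows and peaks found in both replicates.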

Additional observations from a re-analysis of the deposited data

How the results depend on the processing

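Of 103 recomputed values of 13 results, 74 stayed within 1.5 times of a count, the 95% interval of a share or median, or 1 SD of the replicates, and the score ratio was above 1 in every alternative. No paired analysis was possible because there is a single group. With windows of 500 bp upstream to 100 bp downstream, 23.6% of divergent pairs had a shared peak, the median score was 300.7, the spacing 379 bp, the share of summits in the central section 50.7%, occupied ribosomal protein pairs 80.9%, peaks with a gene of the 11 classes 35% and peaks found in both replicates 95.5%. With 1500 bp to 500 bp they were, without the score, 38.2%, 579 bp, 37.1%, 100%, 27.9% and 91.2%, and the score ratio was 1.74. With the strongest 50% of peaks, 27.6% of pairs had a shared peak, the median score was 334, the score ratio 1.32, peaks found in both replicates 99.6%, ACCGTA 19% and GC 45.6%. With the 5′ ends of all transcripts the score ratio was 1.90. With sequence up to 100 bp from the summit, GAGAGA was at 24.2%, ACGCAG at 18.3% and GC at 38.7%. With peaks found in both replicates, an alternative chosen after seeing the data, 31.5% of pairs had a shared peak and the score ratio was 1.58. Leaving out either replicate gave a score ratio of 1.67 to 1.70 and GC of 44.2% to 45%. The causes were not tested. Unknown depth and the unknown scale of the score limit every value.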

Other observations

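On the X chromosome, 36 optimal peaks met the same position rule; they were not part of the set. Genes that do not code for proteins also lay within 200 bp of shared summits: an annotated ncRNA at 90 of the 831 (10.8%), against 9.26% of the one-sided peaks, a tRNA gene at 3 and a snoRNA gene at 4, against 25 and 26 of the 1846 one-sided peaks. Pairs with only sequence names, without a gene name for either gene, made up 71 of the 831 peaks (8.54%), with a median score of 266, against 290 for pairs in which both genes were named.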
